A study of Mus musculus with 10 samples.

Results

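The comparison sets 4 libraries of mouse primary hippocampal neurons given anti-miR-409-5p against 4 given anti-miR-501-3p, so it covers 8 of the 10 libraries of the series. The members were chosen by their titles alone, and the other 2 libraries, given scramble RNA as control, enter no test of this contrast. All groups received their RNA in lipid nanoparticles, were treated between day 10 and day 12 in vitro for 48 h, and carry no genetic change that the labels name. The labels do not say whether the libraries within a group stem from separate cultures, so the p-values measure only the spread between these libraries. The series concerns exercise-induced microRNAs and neuronal homeostasis, and this contrast asks where the 2 inhibitors leave the transcriptome in different states. Because each arm holds an active inhibitor, a difference cannot be assigned to either of them from this contrast alone. The control values are given beside the main genes for that reason.

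A microRNA guides Argonaute to messages whose 3' UTR pairs with its seed, and those messages are destabilised or translated less. An anti-miR is a short antisense strand that binds the mature microRNA and keeps it from its targets. In neurons such inhibitors are used to find messages that a microRNA holds down. miR-409-5p comes from the imprinted Dlk1-Dio3 region, whose maternal noncoding transcripts carry many microRNAs. miR-501-3p comes from a cluster inside the gene of the chloride transporter Clcn5.

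The mature strands, from RefSeq on GRCm38.p6, are printed 5′ to 3′ because they define what each inhibitor was directed against. Capitals mark the seed, bases 2 to 8. The first lies at chr12:109743172-109743194 on the plus strand, within the span of the noncoding transcript Mirg. The second lies at chrX:7241270-7241291 on the minus strand, within the span of Clcn5.
mmu-miR-409-5p: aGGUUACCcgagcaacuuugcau
mmu-miR-501-3p: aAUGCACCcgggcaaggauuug
Aligned from the first base, the 2 strands hold the same base at 11 of 22 positions, shown in capitals in the next pair of lines.
mmu-miR-409-5p: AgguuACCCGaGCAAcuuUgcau
mmu-miR-501-3p: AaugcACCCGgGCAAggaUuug
The longest shared run is 5 bases, positions 6 to 10 of each. Within the seeds 3 of 7 bases are the same, so the full seed matches of the 2 microRNAs are different sequences. A message can still hold seed sites of both, as 323 tested genes did. The files hold no measure of mature microRNA, and the genes Mir409 and Mir501 had 0 counts in all 10 libraries. A limit of 3 counts corresponds to 0.0935 to 0.135 CPM (counts scaled to library size) in the 8 libraries.

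Total gene counts ran from 22254788 to 32096808 in the 8 libraries, and 16224 of 48709 genes had enough counts to be tested. Pan-neuronal markers summed to 8952 to 9449 CPM under anti-miR-409-5p and to 8850 to 9549 CPM under anti-miR-501-3p, with all 10 of 10 tested, so the cultures carried the labelled cell type. Astrocyte markers summed to 4158 to 4386 and 4020 to 4208 CPM, oligodendrocyte lineage markers to 420 to 521 and 351 to 500.7 CPM, and endothelial, mural and fibroblast markers to 234 to 306 and 296 to 361 CPM. Microglia markers summed to at most 18.1 CPM, and 4 of 7 were tested. One library stood apart in ribosomal RNA. CT010467.1, annotated as rRNA, was at 2103 CPM in anti-miR-409-5p replicate 4 and at 97.3 to 234 CPM in the other 7 libraries. Lars2 was at 464 CPM there and at 41.7 to 89.2 CPM in the others. Without number 4 in both groups, 281 genes passed the blocked test described next, against 278 with it. The totals were close, but the genes were not all the same: 176 passed both times. Calls where anti-miR-409-5p had the greater level fell to 61 from 101. Calls where anti-miR-501-3p had it rose to 220 from 177.

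Both anti-miR groups carry the replicate numbers 1 to 4. Libraries with the same number mostly deviated from their group means in the same direction more than libraries with different numbers. Across 12829 genes the correlation of these deviations was 0.376, 0.165, 0.123 and 0.308 for numbers 1 to 4. Of the 8 libraries, 7 correlated best with their own number. Anti-miR-409-5p replicate 3 correlated better with anti-miR-501-3p replicate 4 (0.174) than with its own number (0.123). Its correlation with anti-miR-501-3p replicate 2 was 0.120. These correlations run across genes, which are not independent replicates. Number 1 was the most distinct of the 4.

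**Figure D1:**
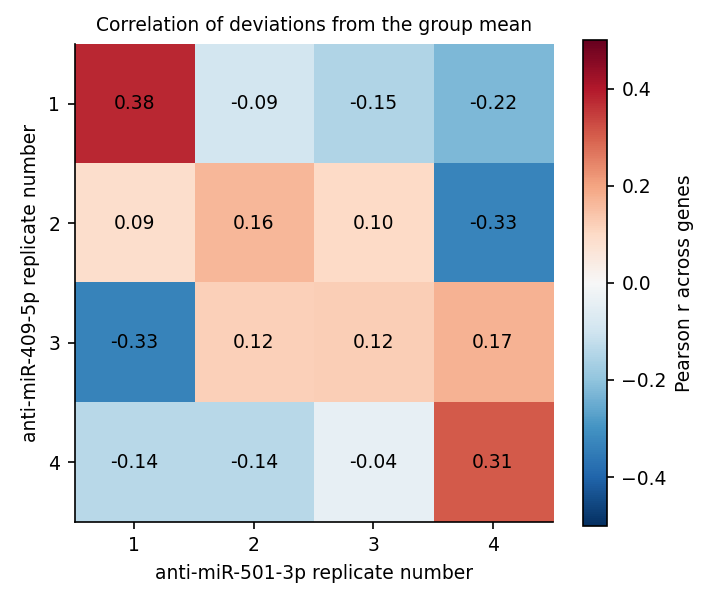
Pearson correlation, across 12829 genes, of each anti-miR-409-5p library's deviation from its group mean (rows, by replicate number) with each anti-miR-501-3p library's (columns). Same-number cells on the diagonal lie between 0.123 and 0.376, and cells off the diagonal reach 0.174.

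The replicate number decided how many genes could be told apart. Without it in the model, edgeR's quasi-likelihood test called 1 of 16224 genes at an adjusted p of 0.05, which is 0.00616% of those tested, and 992 genes had an unadjusted p under 0.05. DESeq2 called 11 genes in that design. With the replicate number as a block, edgeR called 278 genes (1.71%), 101 higher under anti-miR-409-5p (0.623%) and 177 lower (1.09%), and 2117 had an unadjusted p under 0.05. DESeq2 called 72 with the block, 71 of them among the 278. The median standard error of the log2 fold change of the genes called lower was 0.0652 without the block and 0.0349 with it, and over all tested genes it was 0.0647 and 0.0550. The fold changes themselves barely differed between the fits. The count depended on single numbers: it was 143 without number 1 and 60 without number 2.

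The called differences were small. The median absolute log2 fold change was 0.18 among the 101 genes higher under anti-miR-409-5p and 0.16 among the 177 lower, and 2 and 3 of them exceeded 1.5-fold. All 101 higher genes and 172 of the 177 lower genes had the same sign in all 4 numbers. The blocked test selects for such agreement, so these counts describe the calls and add no support for them. In 27 of the higher and 52 of the lower genes the 4 libraries of one group lay entirely above the 4 of the other. Over all tested genes, 278 (1.71%) were separated in this way with anti-miR-409-5p higher and 288 (1.78%) with it lower. Of the 12846 genes with a mean log2 CPM of at least 1, 99.3% had a 95% confidence interval within 1.5-fold in the blocked fit and 83.6% within 1.2-fold.

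**Figure D2:**
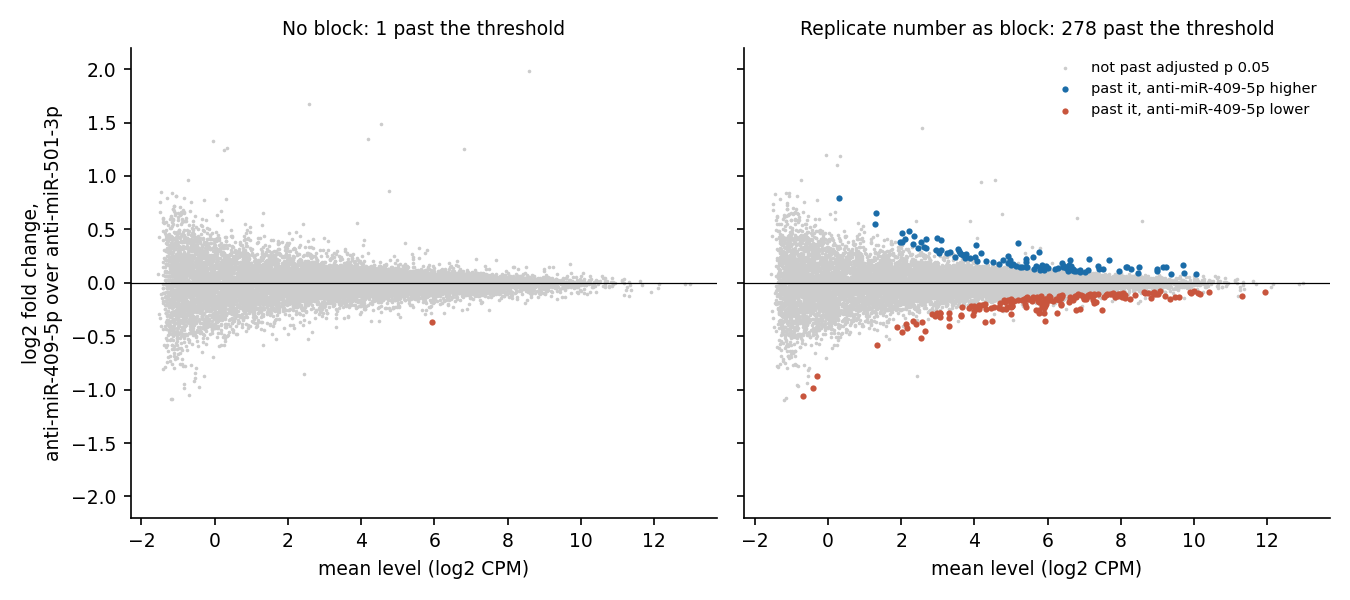
Log2 fold change of anti-miR-409-5p over anti-miR-501-3p (vertical) against mean log2 CPM (horizontal) for 16224 genes, without the block (left) and with the replicate number as a block (right). Coloured points passed an adjusted p of 0.05, 1 gene on the left and 278 on the right, and nearly all lie within 1.5-fold.

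Of the 278 genes, 27 passed with the same sign in every one of the 14 blocked fits that were run, which changed the scaling, the filter, the tool, the libraries, the correction for GC content or the numbers included. In 10 of them the level was higher under anti-miR-409-5p, among them the glial and progenitor genes Bcan, Fabp7, Kcnj10, Nes and Olig1, with Inka2, Nwd1 and Sez6. In 17 the level was lower, among them Fn1, Dcn, Arrdc3, Bnip3, Pdk1, Ldha, Eno2, Gpi1, Higd1a and Fam162a. These fits share libraries and are not independent of each other.

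Fn1 encodes fibronectin, an extracellular matrix glycoprotein that fibroblasts, endothelial cells and astrocytes secrete. It was the only gene past the threshold in both fits. Fn1 (ENSMUSG00000026193, chr1:71585520-71653200, minus strand) was at 55.5, 55.5, 51.4 and 52.5 CPM under anti-miR-409-5p, in the order of the replicate numbers, and at 72.6, 69.5, 70.05 and 64.7 CPM under anti-miR-501-3p. The groups did not overlap, and the 2 controls, at 55.5 and 69.3 CPM, spanned the gap between them. Means were 53.7 ± 2.1 and 69.2 ± 3.3 CPM (SD, n = 4 each), so Fn1 was 1.28-fold higher under anti-miR-501-3p. The log2 fold change was -0.36 (SE 0.042, adjusted p = 0.0032) without the block and -0.36 (SE 0.033, adjusted p = 1.2e-07) with it. In the fit of all 10 libraries without the block its adjusted p was 0.154, and no gene passed there.

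A share of the genes of glycolysis and the hypoxia response was lower under anti-miR-409-5p than under anti-miR-501-3p. Hypoxia-inducible factors switch these genes on when oxygen is short, raising glucose uptake, glycolysis and lactate output while holding pyruvate back from mitochondrial oxidation. With the block, 11 of the 28 tested members were lower under anti-miR-409-5p and 1 was higher, against 1.09% and 0.623% of all tested genes. The median log2 fold change of the 28 was -0.105, with 26 below 0, where the median of all tested genes was 0.000386. By number the median was -0.161, -0.071, -0.102 and -0.106, so each of the 4 numbers showed the same direction and number 1 the largest value. No member passed in edgeR's main fit without the block. Without the block, Bnip3 did pass in DESeq2 (adjusted p = 0.00285). With no low-count filter, Bnip3 and Hk2 passed in edgeR's unblocked fit (adjusted p = 4.6e-07 and 5.3e-05). Markers of endothelial, mural and fibroblast cells were lower in the same group (234 to 306 against 296 to 361 CPM in sum), and their part in this result was not tested. Without number 1 in the blocked fit, 6 members were called lower, without number 2 it was 7, and blocked DESeq2 also called 7.

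Bnip3, a mitochondrial protein that promotes mitophagy in hypoxia, separated the groups most clearly within the list. It was at 49.9, 49.6, 48.3 and 47.8 CPM under anti-miR-409-5p and at 67.6, 58.4, 57.6 and 55.6 CPM under anti-miR-501-3p. All 4 libraries of the first group lay below all 4 of the second, and the controls, at 48.1 and 52.2 CPM, lay near the anti-miR-409-5p level. The log2 fold change was -0.29 (SE 0.036, adjusted p = 1.8e-05) with the block, or 1.22-fold, and -0.29 (adjusted p = 0.203) without it. Pdk1, a kinase that holds pyruvate back from mitochondrial oxidation, was at 150.2, 149, 149.8 and 150.1 CPM against 182, 174, 163 and 161 CPM. The groups again did not overlap, and the controls were at 146 and 159.6 CPM. Its log2 fold change with the block was -0.18 (SE 0.028, adjusted p = 0.00037).

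Enzymes of glycolysis were among the calls too. Ldha, which turns pyruvate into lactate, was at 653, 638, 600.2 and 577 CPM under anti-miR-409-5p and at 743, 684, 676 and 647 CPM under anti-miR-501-3p. Within each number the anti-miR-409-5p library was the lower one, while the groups as wholes overlapped. The controls, at 724 and 752 CPM, both lay above 7 of the 8 libraries. The log2 fold change was -0.16 (SE 0.021, adjusted p = 7.8e-05). Hk2, the inducible hexokinase, was at 49.3, 49.0, 43.6 and 44.8 CPM against 61.6, 57.3, 55.9 and 48.3 CPM, lower in each number, with controls at 49.2 and 63.5 CPM. Its log2 fold change was -0.25 (SE 0.037, adjusted p = 0.0002), and its adjusted p was 0.347 in the blocked fit of all 10 libraries.

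The other members called lower had smaller fold changes. Eno2, the neuronal enolase that also stands in the pan-neuronal list, had a log2 fold change of -0.13 and groups that did not overlap, and Gpi1, which isomerises glucose 6-phosphate, had -0.13. The angiogenic factor Vegfa had -0.15, Pfkl -0.11, Tpi1 -0.10, Aldoa -0.08 and Hk1 -0.08. Aldoa and Hk1 did not pass in any of the 4 fits that left out a number. Pfkl did not pass without number 1, 3 or 4, nor Tpi1 without number 1, 2 or 4, and Vegfa did not pass without number 1 (adjusted p = 0.0771) or number 2 (adjusted p = 0.127). Members that missed the threshold included the phosphoglycerate kinase Pgk1 at -0.16 (adjusted p = 0.0798), Pgam1 at -0.22 (adjusted p = 0.0683) and the glucose transporter Slc2a1 at -0.09 (adjusted p = 0.23). The member called the other way was Aldoc, the aldolase of astrocytes, at 566, 516, 500.8 and 540.3 CPM against 529, 457, 461 and 498 CPM. Aldoc was higher under anti-miR-409-5p in each number, with a log2 fold change of 0.13 (SE 0.022, adjusted p = 0.00105).

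Several genes outside the list that are known to respond to low oxygen, picked after their values were seen, were also called lower under anti-miR-409-5p. They were the endoplasmic reticulum oxidase Ero1l at -0.22, the mitochondrial proteins Higd1a at -0.16 and Fam162a at -0.20, the glycogen synthase Gys1 at -0.22 and the glycolytic regulator Pfkfb3 at -0.15. Basigin, the chaperone of lactate transporters encoded by Bsg, was at -0.12. Since they were chosen for their values, they describe the calls and add no support for the list.

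Promoters of the list were searched for ACGTG on either strand (CACGT on the printed strand is the same motif), the core of a sequence that hypoxia-inducible factors bind, which also stands within CACGTG, the E-box of other factors. In the 300-base window around the RefSeq start (GRCm38.p6), 17 of 25 list genes with an entry held it (68%), and 6 of the 11 called lower did. It stood in 28.6% of 11674 tested genes with an entry and in 21.8% of all 27025. The list was made of known genes of glycolysis and the hypoxia response, so its higher share says nothing about this contrast. Of the members called lower, Gpi1, Pfkl, Tpi1, Eno2 and Pdk1 held no match. Windows of Bnip3 and Ldha are printed on the strand of the gene, with the motif in capitals. These genes had the smallest adjusted p of the list in the blocked fit. The printed windows hold the motif in 2 and 5 places, matches on the 2 strands counted apart. Another Ldha window, chr7:46846832-46847131, held it in 0 places.
Bnip3, chr7:138909457-138909756, minus strand: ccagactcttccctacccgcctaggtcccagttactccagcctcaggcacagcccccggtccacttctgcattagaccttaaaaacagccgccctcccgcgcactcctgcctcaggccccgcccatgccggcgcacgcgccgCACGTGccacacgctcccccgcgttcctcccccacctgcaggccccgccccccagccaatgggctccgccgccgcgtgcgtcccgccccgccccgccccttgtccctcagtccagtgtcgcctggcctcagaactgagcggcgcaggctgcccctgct
Ldha, chr7:46845554-46845853, plus strand: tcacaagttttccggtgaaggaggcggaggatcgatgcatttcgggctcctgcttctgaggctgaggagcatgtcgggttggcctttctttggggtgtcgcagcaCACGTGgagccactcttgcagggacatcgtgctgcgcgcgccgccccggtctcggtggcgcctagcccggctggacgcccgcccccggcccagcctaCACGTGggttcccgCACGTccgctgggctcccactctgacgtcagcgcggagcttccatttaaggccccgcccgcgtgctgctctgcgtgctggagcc
A match describes the letters and shows no binding.

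**Figure D3:**
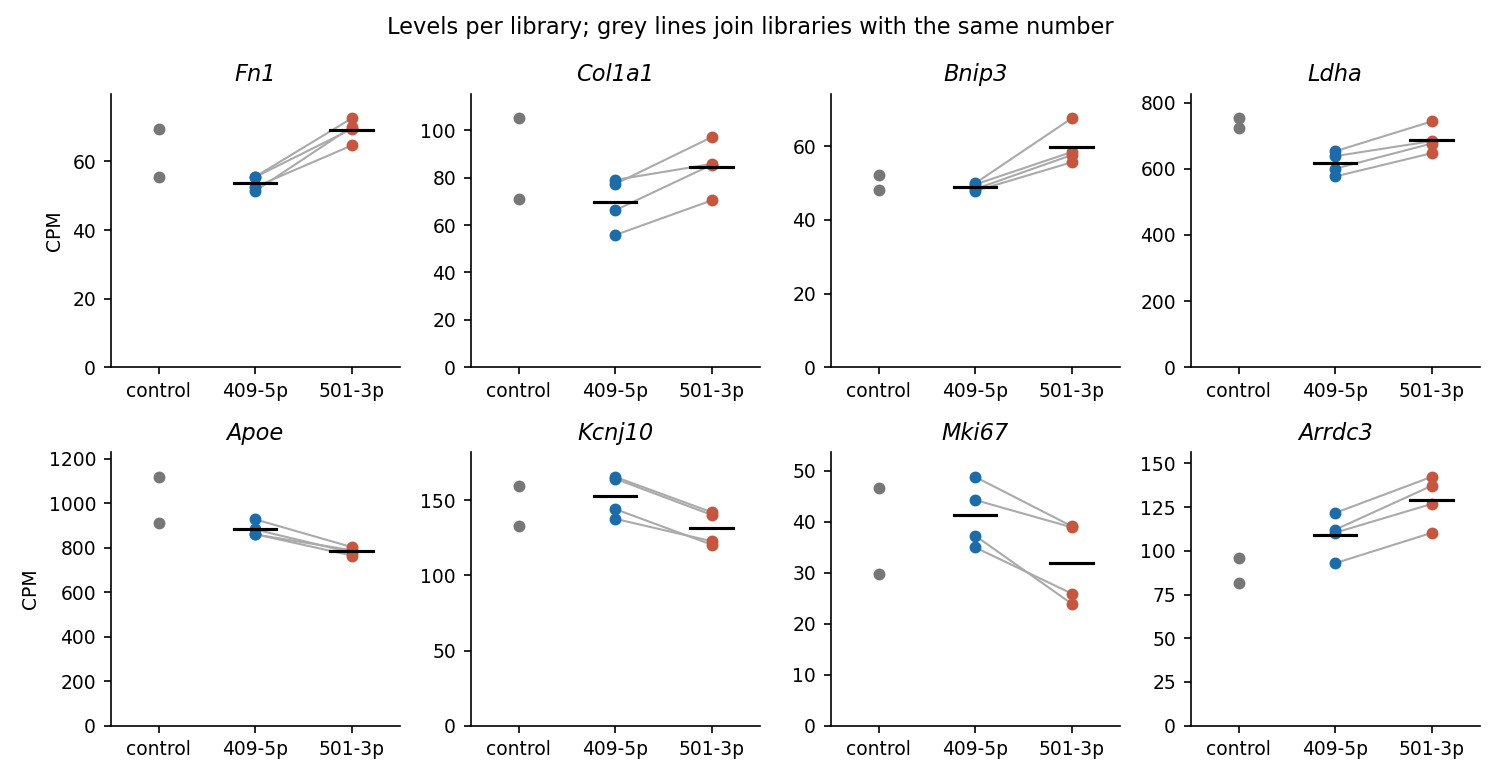
Level in CPM (vertical axes, from 0) of 8 genes in control (2 libraries) and under each anti-miR (4 libraries each). Black bars are means of the anti-miR groups, and grey lines join libraries with the same number. Each line for Fn1, Col1a1, Bnip3, Ldha and Arrdc3 rises towards anti-miR-501-3p, and each line for Apoe, Kcnj10 and Mki67 falls.

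Markers of matrix-producing and vascular cells were lower under anti-miR-409-5p as well. Among the endothelial, mural and fibroblast markers, 6 of 8 tested members were called lower with the block, against 1.09% of all tested genes, with a median log2 fold change of -0.254 over the 8. None was called in edgeR's main fit without the block, and blocked DESeq2 called 3. The 6 were the collagens Col1a1 and Col1a2, the collagen-binding proteoglycans Dcn and Lum, the mural receptor Pdgfrb and the endothelial receptor Kdr. By number the median was -0.276, -0.169, -0.197 and -0.312. The remaining tested members, Pecam1 and Rgs5, had values above 0 and did not pass, and Cldn5 had too few counts to be tested. In bulk RNA, fewer cells of a type and less RNA per cell cannot be told apart.

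Col1a1, the main chain of type I collagen, shows what the replicate number does. It was at 66.3, 79.1, 77.3 and 55.8 CPM under anti-miR-409-5p and at 85.4, 85.8, 97.1 and 70.4 CPM under anti-miR-501-3p. The groups overlapped, yet number 4 was lowest in both and each number was lower under anti-miR-409-5p. The controls, at 70.9 and 105 CPM, differed from each other by more than the group means did. Without the block the log2 fold change was -0.28 (SE 0.138, adjusted p = 0.847), and with it -0.28 (SE 0.036, adjusted p = 4.1e-05). Lum, at 16.3, 21.7, 23.6 and 16.96 CPM against 19.8, 26.7, 28.6 and 25.3 CPM, had a log2 fold change of -0.36 (SE 0.054, adjusted p = 0.00021). In the blocked fit of all 10 libraries Col1a1 had an adjusted p of 0.351 and Col1a2 one of 0.313, and 4 of the 8 markers were called.

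Taken by symbol, a grouping made after the values were seen, 7 of 41 tested collagen genes were lower with the block and none higher, against 1.09% and 0.623% of all tested genes. They were Col1a1, Col1a2, Col3a1, Col5a2, Col6a2, Col6a3 and Col18a1, with log2 fold changes from -0.28 to -0.20. The median of the 41 was -0.055, and by number it was 0.007, -0.038, -0.172 and -0.122, so number 1 did not share the direction. The count was 3 with blocked DESeq2 and 2 in the blocked fit of all 10 libraries, and without number 3 it was 3, with 1 collagen gene higher. Other matrix genes called lower were Lox, the enzyme that crosslinks collagen, at -0.41, the proteoglycan Bgn at -0.23 and the microfibril protein Fbn1 at -0.23. Il33, a nuclear alarmin of stromal and glial cells, was at -0.51 (SE 0.086, adjusted p = 0.00074), with 4.27, 5.00, 6.31 and 3.87 CPM against 5.15, 7.61, 9.06 and 5.93 CPM.

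Among genes of dividing cells, several were higher under anti-miR-409-5p. Of the 8 markers of proliferating progenitors, 4 were called higher with the block, against 0.623% of all tested genes, and none lower. None passed in edgeR's main fit without the block. Blocked DESeq2 called 1, as did the fit without number 2, and 2 were called after the GC and length correction and without number 3 or 4. All 8 had a log2 fold change above 0, with a median of 0.294. By number the median was 0.023, 0.308, 0.449 and 0.296, so number 1 showed almost no difference. Mki67, the nuclear protein of cycling cells, was at 44.3, 35.0, 37.3 and 48.8 CPM under anti-miR-409-5p and at 38.9, 25.9, 23.9 and 39.1 CPM under anti-miR-501-3p. The groups overlapped, each number was higher under anti-miR-409-5p, and the controls, at 46.6 and 29.7 CPM, spanned most of this range. Mki67 had a log2 fold change of 0.38 (SE 0.055, adjusted p = 0.0021). The helicase subunit Mcm5 followed at 0.32 (adjusted p = 0.005), the mitotic kinase Cdk1 at 0.31 (adjusted p = 0.039) and cyclin B1, Ccnb1, at 0.55 (adjusted p = 0.046).

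Among called genes with a mean log2 CPM of at least 1, the 10 largest rises in the blocked fit included other genes known from cell division, a grouping made after the values were seen. Cdc20, which activates the anaphase-promoting complex, was at 0.44, the spindle checkpoint kinase Bub1b at 0.39, the condensin subunit Ncapg at 0.41, the replication factor Mcm10 at 0.47 and Pimreg at 0.49. Foxm1, the transcription factor of the G2 and M phases, was at 0.40 (SE 0.076, adjusted p = 0.0043). Cdca8, a subunit of the chromosomal passenger complex, was at 7.60, 7.17, 6.72 and 7.51 CPM against 6.48, 4.49, 4.78 and 6.13 CPM, with no overlap, and its log2 fold change was 0.41 (SE 0.085, adjusted p = 0.0076). Without number 2 in both groups, Mcm5 was the 1 of the 8 markers that passed, and Mki67 (adjusted p = 0.0856), Foxm1 (adjusted p = 0.105) and Cdca8 (adjusted p = 0.183) did not.

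In the oligodendrocyte lineage 1 marker was called. Oligodendrocyte progenitors are a dividing population of the brain, marked by Olig2, Pdgfra and Cspg4. Of 8 tested markers the called one was Olig1, at 339, 304, 272 and 302 CPM against 318, 263, 245 and 272 CPM. Olig1 was higher under anti-miR-409-5p in each number, with a log2 fold change of 0.15 (SE 0.024, adjusted p = 0.00054). Cspg4 was at 19.7, 15.0, 14.9 and 20.7 CPM against 18.5, 10.1, 7.04 and 12.1 CPM, and its log2 fold change of 0.58 (adjusted p = 0.353) did not pass. The list's median was 0.239 with the block, and by number -0.007, 0.28, 0.313 and 0.279. Without number 1 in both groups 5 of the 8 passed, all higher, while 3 passed with no low-count filter and 4 in the fit that was not robust. Mbp, a marker of mature oligodendrocytes, had -0.14 (adjusted p = 0.257). Outside the marker list, Bcas1, a gene of early myelinating cells, and the lineage factor Zfp488 were called at 0.65 and 0.79. Zfp488 had a mean log2 CPM under 1 and was picked after its value was seen. Neither gene passed in all of the 4 fits that left out a number. The controls ranged as widely, with Cspg4 at 30.2 and 12.7 CPM. What part the share of these cells has in the cell-cycle calls was not tested.

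Astrocyte markers held no call in the main fits. None of the 8 astrocyte markers passed there, and 1 was called higher after the GC and length correction. Their median was 0.039, with 7 above 0, and by number it was 0.011, 0.075, 0.043 and 0.059. Slc1a3 was at 0.06 (adjusted p = 0.147), Gja1 at 0.08 (adjusted p = 0.0946) and S100b at 0.12 (adjusted p = 0.358). Some called genes outside the marker list are also expressed by astrocytes and radial glia. They were picked after their values were seen, so they describe calls and no theme. Apoe, the lipid carrier of the brain, was at 928, 882, 861 and 860.0 CPM against 803, 778, 765 and 789 CPM. All 4 libraries of the first group lay above the second, and the controls, at 1119 and 913 CPM, lay the first above all 8 libraries and the second within the anti-miR-409-5p range. Its log2 fold change was 0.17 (SE 0.020, adjusted p = 9.8e-06), and 0.0655 was its adjusted p in the blocked fit of all 10 libraries.

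Kcnj10, the glial inward rectifier Kir4.1, was at 164, 138, 144 and 166 CPM against 140.4, 123, 121 and 142 CPM, higher under anti-miR-409-5p in each number, with controls at 159.6 and 133 CPM. Its log2 fold change was 0.22 (SE 0.026, adjusted p = 1.2e-05). Kcnj16, which forms channels with it, was at 0.42 (adjusted p = 0.00156). The perineuronal proteoglycan Bcan was at 0.22 (SE 0.025, adjusted p = 9.1e-06), the fatty acid binding protein Fabp7 at 0.15 and the intermediate filament gene Nes at 0.16.

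**Figure D4:**
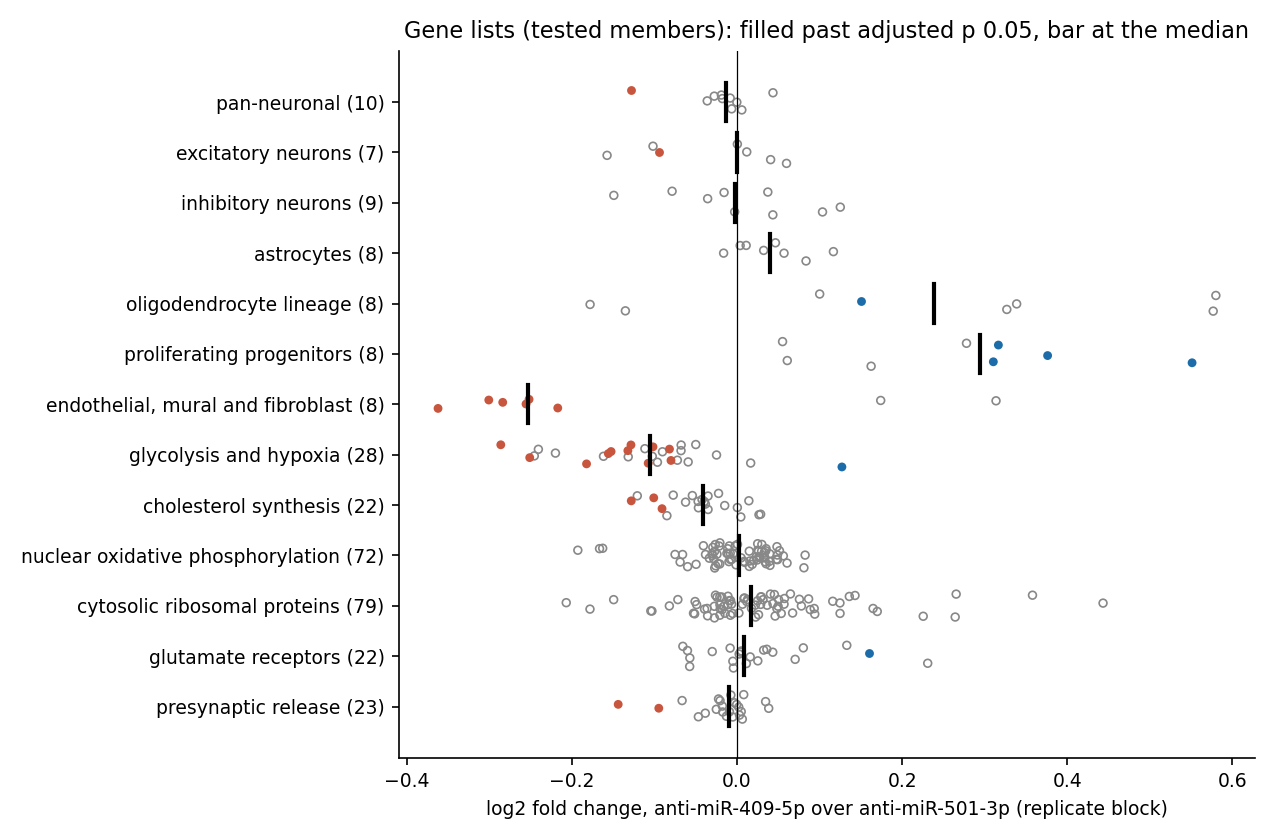
Log2 fold change of anti-miR-409-5p over anti-miR-501-3p in the blocked fit (horizontal) for the tested members of 13 gene lists (rows, number of members in brackets). Filled points passed an adjusted p of 0.05 and black bars are medians, which lie at -0.254 for endothelial, mural and fibroblast markers, -0.105 for glycolysis and hypoxia, 0.239 for the oligodendrocyte lineage and 0.294 for proliferating progenitors.

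Neuronal and synaptic lists held few calls. The median log2 fold change was -0.013 over 10 pan-neuronal markers, 0.000 over 7 excitatory and -0.003 over 9 inhibitory markers, and the only calls were Eno2 and Neurod6, a factor of excitatory neurons, at -0.09 (adjusted p = 0.0349). Neurod6 did not pass without number 1, 2 or 4. Among 22 glutamate receptor genes the kainate subunit Grik3 was called higher at 0.16, with a list median of 0.008. That list held no call with blocked DESeq2, after the GC and length correction, or without number 2, 3 or 4. Of 18 postsynaptic scaffolds none was called (median 0.013). Of 23 presynaptic genes the vesicle proteins Vamp2 at -0.09 and Syt4 at -0.14 were called lower, and neither passed without number 1 or 2. No activity-regulated gene (of 20) and no voltage-gated channel (of 22) passed.

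Vamp2, the synaptobrevin of neurons, was at 1031, 1060.2, 1106 and 1072 CPM against 1149, 1137, 1152 and 1121 CPM. The groups did not overlap, and the log2 fold change of -0.09 (SE 0.020, adjusted p = 0.008) is a difference of 1.07-fold. It did not pass without number 1 (adjusted p = 0.144) or number 2 (adjusted p = 0.106). Sez6, a dendritic membrane protein of neurons, was called higher at 0.16.

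Energy and protein synthesis genes held few calls. None of 72 nuclear oxidative phosphorylation genes (median 0.003) and none of 79 cytosolic ribosomal protein genes (median 0.018) was called. Mitochondrial transcripts took 3.63 ± 0.170% of counts under anti-miR-409-5p and 3.69 ± 0.268% under anti-miR-501-3p (SD, n = 4 each). The difference of -0.0667 percentage points was within the spread between libraries (exact permutation test, two-sided, p = 0.686 over 70 splits). Paired by number, the exact sign-flip test gave p = 0.375, with 0.125 the smallest it can give. Of 15 listed mitochondrial genes, 6 had 0 counts in all 8 libraries, so the share holds no reads of these 6. Of the 9 tested mitochondrial genes 1, mt-Nd2, was called lower at -0.08, and it was at 0.04 after the correction for GC content and length. The slope of expression on transcript GC content differed by 0.0322 log2 units per 10 percentage points (exact permutation p = 0.457, sign-flip p = 0.125, higher under anti-miR-409-5p in 4 of 4 numbers).

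Of the cholesterol synthesis genes, 3 of 22 were called lower under anti-miR-409-5p, against 1.09% of all tested genes, and the median was -0.041. Hmgcs1, which makes the precursor that HMG-CoA reductase uses, was at 2275, 2385, 2573 and 2552 CPM against 2637, 2682, 2703 and 2659 CPM. The groups did not overlap, and the controls, at 2010.0 and 2175 CPM, lay below both. For Hmgcs1 the log2 fold change was -0.13 (SE 0.021, adjusted p = 0.0016). Msmo1 and Mvd were called at -0.09 and -0.10. All 3 calls were lost without number 2, and 1 was made without number 1 or 3, in the fit that was not robust and with DESeq2.

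Stress lists held single calls. The mTOR inhibitor Ddit4, which hypoxia also induces, was lower at -0.10 in the list of the integrated stress and unfolded protein response (26 genes, median -0.035). The p53 target Ccng1 was at -0.11 and the proton pump subunit Atp6v1a at -0.07, each the only call in its list. None of these 3 lists held a call with blocked DESeq2. The list of Ddit4 held none without number 1, 2 or 4, and that of Ccng1 none without number 1 or 2. The list of Atp6v1a held none in any of the 4 fits that left out a number. None of 17 interferon and RNA sensing genes and none of 25 genes of the microRNA machinery passed. Of 14 tested nuclear-retained noncoding transcripts, Pantr1 was higher at 0.18 and Xist lower at -0.09. Neither was called with blocked DESeq2, in the fit that was not robust, or without number 2 or 3.

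The transcripts that carry the 2 microRNAs were not called. Mirg, the host of miR-409-5p, was at 23.0, 23.2, 20.7 and 24.0 CPM against 21.6, 21.4, 23.2 and 22.6 CPM, and its log2 fold change was 0.04 (95% interval -0.07 to 0.14). Its neighbours Rian and Meg3 had -0.02 and -0.02. Clcn5, the host of miR-501-3p, was at 44.3, 45.9, 48.3 and 45.9 CPM against 49.0, 50.2, 48.6 and 49.1 CPM. The 4 anti-miR-409-5p libraries lay below the 4 anti-miR-501-3p libraries, and the controls were at 40.2 and 45.6 CPM. The log2 fold change of Clcn5 was -0.10 (95% interval -0.17 to -0.03, adjusted p = 0.17), so it did not pass.

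Seed sites were counted in the longest annotated 3' UTR of 13944 tested genes. The search ran on the transcript strand only. A site of miR-501-3p was GGTGCATA, or its first 7 bases (GGTGCAT) or last 7 (GTGCATA), so the 8-base form contains both. A site of miR-409-5p was likewise GGTAACCA, or its first 7 bases (GGTAACC) or last 7 (GTAACCA). Genes with a site of miR-409-5p alone numbered 1146, and their median log2 fold change was 0.0005. For the 1587 genes with a site of miR-501-3p alone it was -0.0035, for the 323 with sites of both -0.0073, and for the 10888 with neither 0.0027. Of the genes with a miR-409-5p site alone, 6 were called higher and 13 lower, or 0.524% and 1.13%. Of those with a miR-501-3p site alone, 14 and 26 were called, or 0.882% and 1.64%, and of those with neither, 76 and 121, or 0.698% and 1.11%. Of those with both, 3 and 10 were called, or 0.929% and 3.10%, and their 3' UTRs were longest, with a median of 3779 bases against 1137 for genes with neither.

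**Figure D5:**
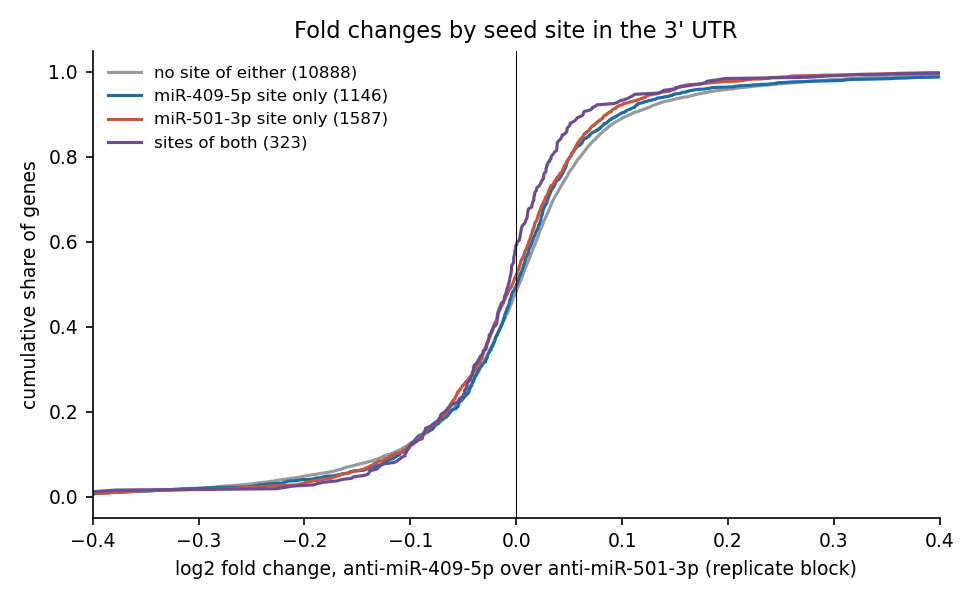
Cumulative share of genes (vertical) by log2 fold change of anti-miR-409-5p over anti-miR-501-3p in the blocked fit (horizontal, shown from -0.4 to 0.4), for 4 classes of seed site in the 3' UTR. The curves run close together, with medians from -0.0073 to 0.0027.

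For each microRNA, the genes with a site of it alone and the smallest p in the blocked fit were taken, 3 in each direction, so both directions are present by choice. Sites of 7 of these 12 genes, picked after their values were seen, are printed with 10 bases of 3' UTR on each side, on the transcript strand, to show what a seed match looks like in called genes. Capitals mark the match, and coordinates are on mm10. The first 3 are sites of miR-409-5p, with 1 of the 2 sites of Foxm1, and the other 4 of miR-501-3p.
Armh4, chr14:49680759-49680786, minus strand: actgatggtaGGTAACCAgcctgttagt
Arrdc3, chr13:80894973-80894999, plus strand: tggttggattGTAACCAtatactaaca
Foxm1, chr6:128374248-128374274, plus strand: ctcctggcagGGTAACCcttataaatg
Ldha, chr7:46854069-46854095, plus strand: accttaggcgGGTGCATcccatttcca
Pdk1, chr2:71902622-71902648, plus strand: accgcagcgtGGTGCATtttcggggtg
Hmgcs1, chr13:119707874-119707900, plus strand: gtggggagatGGTGCATgtaatttttt
Kcnj10, chr1:172373878-172373904, plus strand: tacctatgctGTGCATAgctgggcttg
A match is a description of the letters and does not show binding. Arrdc3, an arrestin-domain adaptor of receptor trafficking, holds 1 site of miR-409-5p and none of miR-501-3p. It was at 92.9, 112, 122 and 110.4 CPM under anti-miR-409-5p and at 110.3, 137, 142 and 127 CPM under anti-miR-501-3p, lower in each number. Its log2 fold change was -0.24 (SE 0.027, adjusted p = 7.6e-06), and the controls, at 81.9 and 96.2 CPM, lay below most libraries of both groups. Armh4 was lower at -0.16 and Foxm1, with 2 sites of miR-409-5p, higher at 0.40. For miR-501-3p, Ldha, Pdk1 and Hmgcs1 were higher under the inhibitor of that microRNA and Kcnj10, Inka2 and Nwd1 lower, the last pair at 0.18 and 0.15 on the scale of anti-miR-409-5p over anti-miR-501-3p.

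Among the remaining falls with no site of either microRNA were the carboxylate transporter gene Slc16a9, at 5.09, 5.26, 5.72 and 5.10 CPM against 6.34, 8.46, 7.57 and 6.61 CPM, and Rgs11, a regulator of G protein signalling, at 79.0, 81.0, 74.6 and 73.7 CPM against 87.0, 91.9, 90.1 and 87.8 CPM. Neither pair of groups overlapped. Their log2 fold changes were -0.46 (SE 0.083, adjusted p = 0.0023) and -0.21 (SE 0.031, adjusted p = 0.00021), and Slc16a9 did not pass without number 2 (adjusted p = 0.128). Slc16a6, another transporter of the same family, was lower at -0.29, the dynein light chain Dynlt3 at -0.19, and Nampt, the rate-limiting enzyme of NAD salvage, at -0.16.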

How the data were processed

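RNA of mouse primary hippocampal neurons was sequenced as polyadenylated single-end reads of 50 bp, per the labels' protocols, with a kit that does not mark strand. The authors deposited raw counts per gene and library, for which the submitters' processing notes name STAR 2.5.2b, featureCounts, Subread 1.5.1, FastQC 0.11.5 and mm10. The annotation release and how multi-mapped reads were counted are not given in the sources used here, so paralogs, overlapping and antisense genes are uncertain. The authors' tables of each anti-miR against control were not used.

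From the counts, edgeR 4.0.16 in R 4.3.3 tested anti-miR-409-5p against anti-miR-501-3p in 8 libraries (filterByExpr, TMM, robust quasi-likelihood, two-sided, Benjamini-Hochberg at 0.05 over 16224 genes), without and with the replicate number as a block. Both fits used the same libraries. CPM are scaled by TMM over all 10 libraries, and group statistics are means ± SD of 4. Positive log2 fold changes mean higher under anti-miR-409-5p. The block rests on shared numbers in the titles. The deviations of same-numbered libraries correlated at 0.376, 0.165, 0.123 and 0.308, each above the limit of 0.1 set for a paired reading. Some pairs of different numbers passed that limit too, so it does not by itself set same-numbered pairs apart. They were anti-miR-409-5p replicate 3 with anti-miR-501-3p replicates 4 (0.174) and 2 (0.120), and replicate 2 with replicate 3 (0.1003). Genes were matched by Ensembl identifier to mm10 (48349 of 48709 with a symbol). Totals of 22254788 to 32096808 counts per library set the precision, and limits from counts of 0 cover counting error only.

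The comparison, the 26 gene lists and the alternatives (scaling, filter, DESeq2 1.42.0, all 10 libraries, GC and length trend removed by splines of 5 degrees of freedom, each library or number left out) were chosen with earlier results of these data known. Named genes are the largest called changes with a mean log2 CPM of at least 1, the 3 of smallest p per list, the host transcripts, genes with a seed site of a single microRNA and genes whose groups do not overlap. Other called list members, genes that passed in every blocked fit and the rRNA-related CT010467.1 and Lars2 were named after their values were seen, and some genes that these rules pick are not reported here. The fits were tested on simulated data.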

Additional observations from a re-analysis of the deposited data

Results flagged for a closer look

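Each anti-miR group was checked for a single library far from the other 3, over 204 groups of 4 (Dixon's ratio of gap to range, limit 0.829), and 7 were past the limit. Chance alone flags about 1 in 20 groups. Anti-miR-409-5p replicate 4 held CT010467.1 at 2103 CPM, where the others were at 109 to 123 CPM, and Lars2 at 464 CPM, where the others were at 52.2 to 55.8 CPM. The other 5 were all in anti-miR-501-3p replicate 1. It was highest for Fam162a (99.2 CPM against 85.5 to 87.1), Mcm10 (4.42 CPM against 2.94 to 3.15) and Bcan (206 CPM against 185 to 186). It was lowest for Meg3 (2811 CPM against 3501 to 3511) and Dynlt3 (162 CPM against 166 to 167). Without this library, the test without the block called 6 genes.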

How the results depend on the processing

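The count of calls without the block was 1, and 1 under 3 other scalings, a stricter filter and a fit that was not robust. It was 78 with no low-count filter, 11 with DESeq2, 0 in the fit of all 10 libraries, 7 after removal of the GC and length trend and 278 with the replicate block. Leaving out each library gave 1 to 6, the 6 without anti-miR-501-3p replicate 1. With the replicate block, the 278 calls became 505 with no low-count filter and 72 with DESeq2, and 60 to 281 when a number was left out. The other 7 blocked alternatives gave 197 to 293. The cause of these changes was not tested. The mitochondrial share difference of -0.0667 ranged from -0.189 to 0.0197 when a library was left out, and was 0.0102 without anti-miR-409-5p replicate 1 and 0.0197 without anti-miR-501-3p replicate 4. The GC slope difference ranged from 0.00593 to 0.0595. After removal of the GC and length trend mt-Nd2 turned to 0.0341 (0.0351 with the block) and Rian to 0.0706 (0.0675 with the block). Leaving out single libraries moved Meg3 from -0.0965 (without anti-miR-501-3p replicate 1) to 0.0049, and single numbers in the blocked fit from -0.0721 (without number 1) to 0.0088. CT010467.1 ran from -0.44 (without anti-miR-409-5p replicate 4) to 2.33, and with the block from -0.40 (without number 4) to 1.26. Lars2 ran from -0.31 to 1.54, and with the block from -0.37 to 1.09, lowest without the same replicate 4 or number 4. Of 156 list medians recomputed (26 lists under 3 scalings, all 10 libraries, the GC and length correction and the block, not the leave-outs) 2 moved by more than the spread between numbers, those of the mitochondrial genes (0.06) and of the stress list (-0.02), both after that correction. Without number 1 the blocked median of the Dlk1-Dio3 list went from -0.0194 to 0.041. The precision is limited: among genes with a mean log2 CPM of at least 1, 83.6% had a 95% interval within 1.2-fold in the blocked fit.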

Other observations

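Most genes whose groups did not overlap missed the threshold. Of the 278 (1.71%) with anti-miR-409-5p higher, 27 were called with the block, and of the 288 (1.78%) with it lower, 52. Meis1, Ndc80 and Grm2 are low-abundance examples that missed it. Meis1, a homeobox factor of progenitors, was at 3.71, 3.73, 3.54 and 3.77 CPM under anti-miR-409-5p and at 3.31, 2.21, 2.83 and 2.95 CPM under anti-miR-501-3p, and its log2 fold change was 0.39 (adjusted p = 0.0821 with the block). Ndc80, a kinetochore protein, had 0.45 (adjusted p = 0.0921). Grm2, a presynaptic glutamate receptor, was at 6.97, 6.498, 6.17 and 7.004 CPM against 5.75, 5.27, 5.96 and 5.83 CPM, with 0.23 (adjusted p = 0.167). The Y-linked helicase gene Ddx3y passed in every blocked fit, at 43.4, 50.7, 59.8 and 65.5 CPM against 51.2, 65.5, 66.1 and 74.6 CPM, lower under anti-miR-409-5p in each number, with a log2 fold change of -0.23 (SE 0.035, adjusted p = 0.00023). Both controls, at 34.5 and 39.0 CPM, lay below all 8 libraries.

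Cnn2, an actin-binding calponin of smooth muscle and fibroblasts, was at 4.46, 5.29, 4.27 and 4.22 CPM against 5.50, 6.69, 6.54 and 5.32 CPM, a log2 fold change of -0.39 (adjusted p = 0.0155 with the block). It did not pass without number 2 (adjusted p = 0.131) or number 3 (adjusted p = 0.0974). Mgarp, a mitochondrial protein that hypoxia induces, was at 2.70, 3.03, 3.59 and 3.20 CPM against 4.39, 3.53, 5.05 and 3.80 CPM, a log2 fold change of -0.41 (adjusted p = 0.0471), which did not pass without number 1, 2 or 3.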
